A study of Mus musculus with 5 samples.

Results

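The 10 genes described here encode the enzymes that remove or add most methyl groups on lysine 4 of histone H3 (H3K4) in mammals. They were chosen by name, with earlier results of these data known. The 4 demethylase genes are Kdm5a, Kdm5b, Kdm5c and Kdm1a, and the 6 methyltransferase genes are Kmt2a, Kmt2b, Kmt2c, Kmt2d, Setd1a and Setd1b. All 10 were among the 17818 gene symbols of a table of heart RNA, and all 10 passed the filter of at least 1 CPM (counts scaled to the size of the library) in at least 2 libraries, as did 12734 symbols in all.

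The RNA was poly-A selected and came from hearts of male mice, 12 months after bone marrow transplantation. The groups were Tet2+/- given Oridonin (2 libraries), Tet2+/- given vector (2 libraries) and WT given vector (1 library), and treatment lasted 2 months by the design text. Every animal had thus been transplanted, and the WT heart is a transplanted, vector-treated control. The product of Tet2 oxidises methylated cytosine, its loss in blood stem cells is a common route to clonal hematopoiesis, and oridonin is a plant diterpenoid that the series title names as an inhibitor of KDM5C. The labels do not say which cells of the recipients carried the Tet2 allele, and a heart library reads mainly the heart's own cells. Nothing in the labels says that the replicates came from separate animals, so the p-values speak for the spread among these libraries alone, which may be technical, and the WT group has no replicate.

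H3K4 carries up to 3 methyl groups. Trimethylation lies at the start of active genes, and monomethylation marks enhancers. KDM5 enzymes use iron and 2-oxoglutarate to remove methyl groups from trimethylated and dimethylated H3K4, whereas KDM1A uses a flavin and acts on dimethylated and monomethylated H3K4. The methyltransferases work in large complexes built on a shared core of WDR5, RBBP5, ASH2L and DPY30. SETD1A and SETD1B make much of the trimethylation at active promoters, KMT2A and KMT2B act at selected promoters such as those of Hox genes, and KMT2C and KMT2D act mainly at enhancers. In people, mutations of KMT2D cause Kabuki syndrome, in which heart defects are frequent. The table reads mRNA and holds no measure of H3K4 methylation or of enzyme activity.

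The libraries held between 14574823 and 15535778 counts, and single counts of the 10 genes lay between 106 and 1188. The highest, of Kmt2d, is a rounded value of the WT column, which is a mix as described below. In the table as deposited, each Tet2 column was a weighted sum of log2 values, 0.75 from the library named and 0.25 from its fellow replicate. With this mix undone, 99.92% to 99.94% of values were whole counts within 0.01. The WT column was a mix too, since 33.5% of its values were whole. At the same weight, 99.9% of 1376 WT values between 50 and 100 counts were fitted by a pair of whole counts within 25% of each other, against 12.0% to 12.9% at 6 other weights. With a Tet2 library as the second member of the pair, at most 1.82% were fitted, so the second set of counts is in no other column and this mix could not be undone. The unmixed values are used below for the Tet2 libraries and the WT column as deposited, so every comparison with WT sets a mixed column against unmixed ones. Genes of the mitochondrial genome took 30.2% and 28.2% of counts in the oridonin hearts, 26.8% and 29.7% in the Tet2 vector group and 23.6% in the WT heart. Summed over 6 markers of the atrial chamber, the level was 17.6 and 20.9 CPM in the oridonin hearts, 1090 and 91.7 CPM in the Tet2 vector group and 49.5 CPM in the WT heart. Tet2 vector replicate 1 thus stood apart, with all 6 atrial markers at 3 counts or more, while 2 or 3 of them were under 3 counts in each other library. Myl7, Sln and Bmp10 had 176, 66.6 and 187 CPM in it and at most 0.326 CPM in the others. Results are given below also without this library. As a check of the labelled tissue, 8 cardiomyocyte markers summed to between 48000 and 59900 CPM in each library.

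The promoters of Kdm5c, the named target of oridonin, of Kdm1a, which varied least, and of Kmt2a and Kmt2d, which varied most, are shown because these genes mark the ends of the pattern described below. The sequences come from RefSeq (build GRCm38.p6) and run to the base before the start that RefSeq gives, or to the base before the first GENCODE start of the gene where that lies further upstream. Each is written along the gene's own strand, with CG dinucleotides in capitals. Kdm5c is given from chrX:152232977-152233019 (plus strand), Kdm1a from chr4:136602724-136602973 (minus strand), Kmt2a from chr9:44881297-44881539 (minus strand) and Kmt2d from chr15:98871206-98871455 (minus strand).
Kdm5c: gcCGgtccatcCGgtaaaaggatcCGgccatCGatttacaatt
Kdm1a: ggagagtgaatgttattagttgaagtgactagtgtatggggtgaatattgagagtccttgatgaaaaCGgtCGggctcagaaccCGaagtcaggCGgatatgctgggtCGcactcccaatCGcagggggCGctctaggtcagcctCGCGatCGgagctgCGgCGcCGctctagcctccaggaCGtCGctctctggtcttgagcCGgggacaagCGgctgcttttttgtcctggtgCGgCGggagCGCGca
Kmt2a: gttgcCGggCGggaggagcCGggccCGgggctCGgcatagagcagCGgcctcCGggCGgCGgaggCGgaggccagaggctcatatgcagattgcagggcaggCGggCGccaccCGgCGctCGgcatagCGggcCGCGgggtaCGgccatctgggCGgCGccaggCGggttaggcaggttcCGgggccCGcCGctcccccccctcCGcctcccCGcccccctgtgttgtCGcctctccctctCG
Kmt2d: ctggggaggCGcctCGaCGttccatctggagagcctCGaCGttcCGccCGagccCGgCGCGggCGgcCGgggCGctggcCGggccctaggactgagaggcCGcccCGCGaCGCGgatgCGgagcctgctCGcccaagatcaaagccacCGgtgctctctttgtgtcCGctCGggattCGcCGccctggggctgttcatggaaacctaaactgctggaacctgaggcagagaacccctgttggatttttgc

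Of the 10 genes 7 were matched in the RefSeq promoters, and Kdm5a, Kmt2b and Setd1b were not. Over the 250 bases before the RefSeq start, these 7 promoters held between 10 and 48 CG dinucleotides, with the fewest in Kdm5c and the most in Kmt2c. All of this stretch in Setd1a, and all but the 43 bases printed above in Kdm5c, lies within the gene as GENCODE annotates it. The median over all 32851 mouse promoters of the table was 6. At least 20 were present in 5 of the 7 genes (Kdm1a, Kmt2a, Kmt2c, Kmt2d and Setd1a) and in 17.9% of all promoters. The letters GGGCGG, bound by SP1 and KLF factors, were found on either strand in 4 of the 7, with 4 matches in Kmt2a, 4 in Kmt2d, 12 in Kmt2c and 1 in Kdm5b, and in 32.7% of all promoters. Each such match contains a CG. CCAAT, the NF-Y motif, was found on either strand in Kdm5c and Kdm1a with 1 match each and in 33.8% of all promoters. CACGTG, an E-box, was in 0 of the 7 and in 6.02% of all promoters.

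Per kilobase of mRNA, so that genes can be compared, Kdm1a had the highest level of the 10. Its mean over the 5 libraries was 10.2 CPM per kb, with a range of 8.67 to 11.5. Kdm5c came next at 5.60 CPM per kb (3.75 to 7.86), and it was second to Kdm1a in all 5 libraries. Kmt2b (2.98), Kmt2c (2.97), Kdm5a (2.85), Kmt2a (2.81), Kmt2d (2.52) and Setd1b (2.15 CPM per kb) followed, with ranges that overlap from one to the next. Kdm5b had a mean of 1.70 CPM per kb (1.25 to 2.16) and Setd1a of 1.34 (1.07 to 1.68), and these ranges also overlap. Kdm5c was therefore the most abundant KDM5 transcript in these hearts by length-scaled level, ahead of its Y-linked paralog Kdm5d at 1.77 CPM per kb. This order rests on the mRNA length taken for each gene, 5900 bases for Kdm5c and 10944 for Kdm5a. In CPM alone, Kdm5a was above Kdm5c in oridonin replicate 2 (36.4 against 31.6). It was also slightly above in both Tet2 vector libraries (37.8 against 37.7 and 22.4 against 22.1), and below Kdm5c in oridonin replicate 1 and the WT heart.

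Of the demethylase genes, Kdm5c (chromosome X, 152233020 to 152274535, GRCm38) had 27.5 and 31.6 CPM in the oridonin hearts, 37.7 and 22.1 CPM in the Tet2 vector group and 46.4 CPM in the WT heart. It lies on the X chromosome and escapes X inactivation in females, and loss of it causes a form of intellectual disability in people. The WT heart was the highest of the 5, and the oridonin values lay between those of the Tet2 vector hearts. Kdm5a (chromosome 6, 120364124 to 120444574), found first as a partner of the retinoblastoma protein, had 20.9 and 36.4 CPM in the oridonin hearts, 37.8 and 22.4 CPM in the Tet2 vector group and 38.2 CPM in the WT heart. One library of each Tet2 group was near the WT level and the other was well below it. Kdm5b (chromosome 1, 134560171 to 134635285), a KDM5 gene abundant in many tumours, had 10.9 and 14.1 CPM in the oridonin hearts, 18.9 and 12.6 CPM in the Tet2 vector group and 17.8 CPM in the WT heart. Its Tet2 vector values lay on both sides of the WT value.

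Kdm1a (chromosome 4, 136550540 to 136602723), the flavin-dependent demethylase of the CoREST complex, had 26.3 and 31.6 CPM in the oridonin hearts, 35.0 and 31.9 CPM in the Tet2 vector group and 30.4 CPM in the WT heart. It varied least of the 10, with a highest value 1.33 times the lowest. Alone among them it had both oridonin libraries below both Tet2 vector libraries, though by 31.6 against 31.9 CPM at the nearest point.

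Among the methyltransferase genes, Kmt2a (chromosome 9, 44803355 to 44881296), which maintains Hox gene expression and is broken by translocations in leukaemia, had 25.7 and 53.4 CPM in the oridonin hearts, 55.2 and 22.0 CPM in the Tet2 vector group and 75.4 CPM in the WT heart. Its highest value was 3.43 times its lowest, the widest spread of the 10, and within the Tet2 vector group replicate 1 was 2.51 times replicate 2. Kmt2d (chromosome 15, 98831669 to 98871204), an enhancer methyltransferase, had 40.6 and 55.4 CPM in the oridonin hearts, 50.6 and 24.2 CPM in the Tet2 vector group and 79.2 CPM in the WT heart. Here the WT heart again led and Tet2 vector replicate 2 was last. Its relative Kmt2c (chromosome 5, 25271798 to 25498783) had 31.3 and 49.0 CPM in the oridonin hearts, 52.5 and 23.3 CPM in the Tet2 vector group and 66.1 CPM in the WT heart. Both enhancer enzymes thus had the same highest and the same lowest library.

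Kmt2b (chromosome 7, 30568858 to 30588726), the closest relative of Kmt2a, had 22.2 and 29.3 CPM in the oridonin hearts, 23.6 and 16.4 CPM in the Tet2 vector group and 34.7 CPM in the WT heart. Setd1b (chromosome 5, 123142193 to 123168629) had 16.7 and 18.0 CPM in the oridonin hearts, 19.5 and 12.1 CPM in the Tet2 vector group and 28.8 CPM in the WT heart. In both genes all 4 Tet2 libraries were below the WT heart. Setd1a (chromosome 7, 127776670 to 127800122) had 8.20 and 8.16 CPM in the oridonin hearts, 10.9 and 6.91 CPM in the Tet2 vector group and 9.26 CPM in the WT heart. Its Tet2 vector values lay on both sides of WT, and its level is uncertain, because 54.0% of its 50-base stretches are shared with the overlapping gene model Gm49388 on the same strand. The same measure was at most 2.02% for the other 9 genes, and Kdm5c shared no such stretch with any other gene, Kdm5d included.

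**Figure D1:**
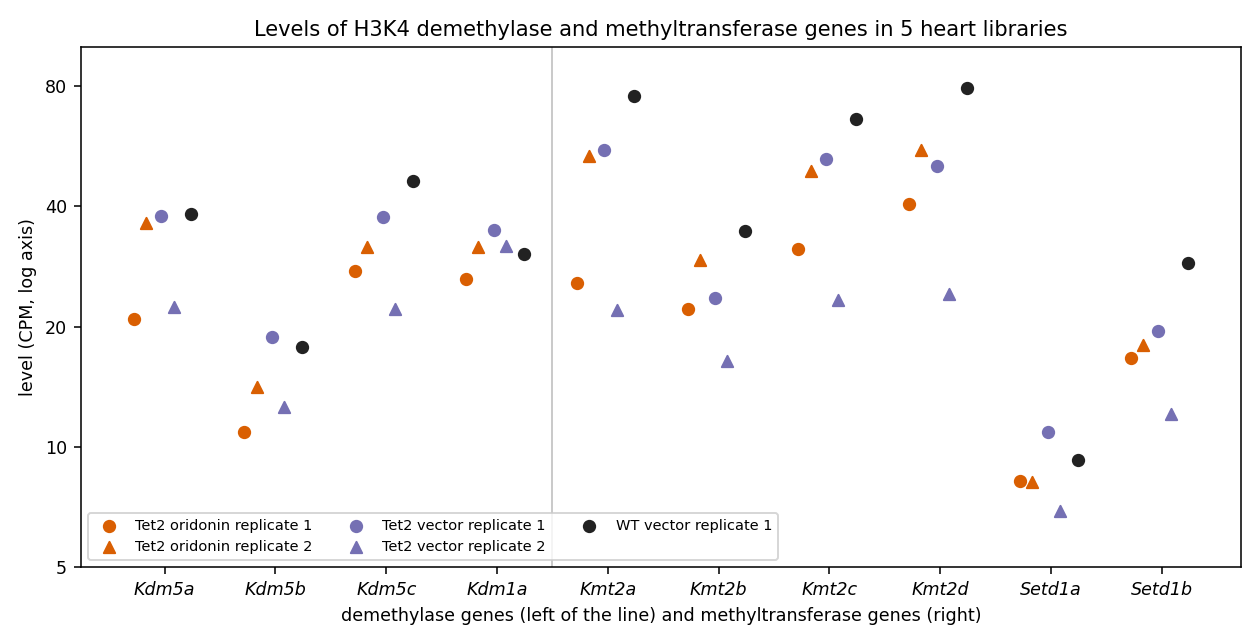
Level of each of the 10 genes in CPM (log axis) in the 5 heart libraries, with demethylase genes left and methyltransferase genes right of the line; circles are replicate 1 and triangles replicate 2. The WT point is the highest in 7 genes, and Tet2 vector replicate 2 is the lowest in 7.

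The order of libraries was much the same from gene to gene. The WT heart was highest in 7 genes and Tet2 vector replicate 1 in the other 3 (Kdm5b, Kdm1a and Setd1a). Tet2 vector replicate 2 was lowest in 7 and oridonin replicate 1 in 3 (Kdm5a, Kdm5b and Kdm1a). These 2 libraries were the lowest pair in 8 of the 10 genes. All 10 were lower in Tet2 vector replicate 2 than in replicate 1, against 62.2% of all genes tested, and 9 were lower in oridonin replicate 1 than in replicate 2, against 59.7%. The replicates of a Tet2 group therefore differed from each other in the same direction for nearly every one of these genes.

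Summed per kilobase, the 3 KDM5 genes reached 7.82 and 10.3 CPM per kb in the oridonin hearts, 12.0 and 7.24 in the Tet2 vector group and 13.4 in the WT heart. The 4 KMT2 genes reached 8.33 and 12.8 CPM per kb in the oridonin hearts, 12.2 and 6.05 in the Tet2 vector group and 17.1 in the WT heart. Both sums were highest in the WT heart, and the values of the Tet2 groups overlapped. The ratio of all 6 methyltransferases to all 4 demethylases was 0.696 and 0.774 in the oridonin hearts, 0.682 and 0.477 in the Tet2 vector group and 0.929 in the WT heart. Methyltransferase transcripts were thus lower than demethylase transcripts in every library on this scale, and the gap was smallest in the WT heart. Kdm1a carried this order. Against the 3 KDM5 genes alone, the 6 methyltransferases were higher in every library, at 11.5 and 16.1 CPM per kb in the oridonin hearts, 16.1 and 8.48 in the Tet2 vector group and 21.8 in the WT heart.

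**Figure D2:**
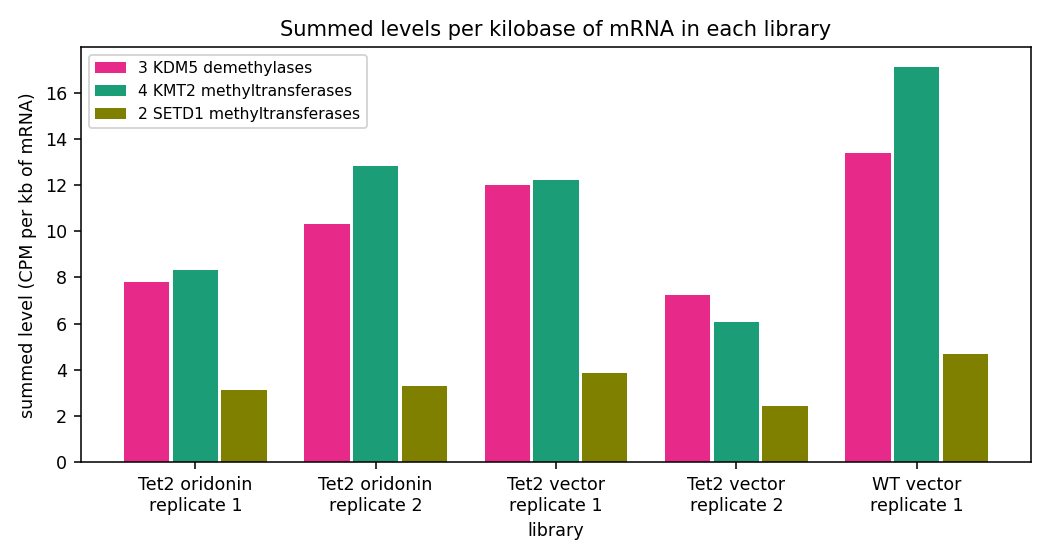
Summed level in CPM per kb of mRNA of the 3 KDM5, 4 KMT2 and 2 SETD1 genes in each library, 1 bar per sum. KDM5 and KMT2 sums are highest in the WT heart (13.4 and 17.1) and lowest in Tet2 vector replicate 2 (7.24 and 6.05).

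The comparison of Tet2 vector with WT vector asks how the hearts of Tet2+/- transplanted animals differ from the control heart without drug. Of the 10 genes, 9 were lower in the Tet2 vector group and 1, Kdm1a, was higher, where 49.6% of all genes tested were lower. Their median log2 fold change was -0.75, against 0.00 over all genes tested. The methyltransferases lay further down (median -0.91, 6 of 6 lower) than the demethylases (median -0.30, 3 of 4 lower), and this difference was not tested. Without Tet2 vector replicate 2 these medians were -0.50 (5 of 6 lower) and 0.03 (2 of 4 lower), and without Tet2 vector replicate 1 they were -1.38 (6 of 6) and -0.63 (3 of 4). In bulk tissue, fewer cells that express a gene and less of its RNA per cell cannot be told apart. Both Tet2 vector libraries were below the WT library in 7 of the 10 genes, against 32.3% of all genes tested, and all 4 Tet2 libraries were below it in the same 7 (Kdm5a, Kdm5c, Kmt2a, Kmt2b, Kmt2c, Kmt2d and Setd1b), against 27.2%.

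No gene of the 10 passed a false discovery rate (FDR) of 0.05 in limma with Benjamini-Hochberg adjustment over all 12734 genes, where 0% of all genes did. At an unadjusted p under 0.05 there were 3, Kmt2b, Kmt2d and Setd1b, all lower, against 9.59% of all genes in either direction and 4.53% lower. This count moved with the setting. It was 6 without Tet2 vector replicate 1 (17.5% of all genes in limma), 0 when Tet2 vector replicate 2 was left out (11.5%), 1 with no filter (8.47%), 1 with the length term described below removed (11.7%) and 0 with the replicate block (4.55%). Kmt2d had the largest difference, with a log2 fold change of -1.18 (SE 0.46, adjusted p = 0.511 in limma with Benjamini-Hochberg adjustment). Setd1b had -0.91 (SE 0.34) and Kmt2b -0.82 (SE 0.33), with adjusted p-values of 0.507 and 0.514 in the same fit. For Kdm5c the log2 fold change was -0.68 (SE 0.36, adjusted p = 0.591), with a 95% interval from -1.56 to 0.19. It was -1.07 without Tet2 vector replicate 1 and -0.30 without Tet2 vector replicate 2, and Kmt2d was at -1.71 and -0.65 in the same settings. Kmt2a, at -1.11 (SE 0.63), and Kmt2c, at -0.92 (SE 0.52), had large differences and wide errors, and ran from -1.78 to -0.45 and from -1.50 to -0.33 between these settings. Setd1b ran from -1.25 to -0.56 and Kmt2b from -1.08 to -0.56. The remaining values were -0.39 for Kdm5a, -0.21 for Kdm5b, -0.09 for Setd1a and 0.14 for Kdm1a.

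On the deposited values with the mix left in, where replicate differences are 0.5 times their unmixed size, 4 of the 10 genes passed the FDR, beside 18.2% of all genes. They were Kdm5c, Kmt2b, Kmt2d and Setd1b, with adjusted p-values in limma of 0.0487, 0.0262, 0.0250 and 0.0241 and with the fold changes given above. The median of the 10 was -1.07 without Tet2 vector replicate 1, the library with atrial markers, and -0.32 without Tet2 vector replicate 2, with 9 and 7 of the genes lower.

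The comparison of Tet2 oridonin with Tet2 vector asks how hearts given the drug differ from those given vector in Tet2+/- transplanted animals. It shares the 2 Tet2 vector libraries with the comparison above. Of the 10 genes, 6 were higher and 4 lower in the oridonin hearts, where 59.8% of all genes tested were lower, with a median log2 fold change of 0.06 against -0.05 over all genes. Again 0 of the 10, and 0% of all genes, passed the FDR in limma, and 0 reached an unadjusted p under 0.05, against 2.6% of all genes. With both oridonin libraries above both Tet2 vector libraries there were 0 of the 10, against 8.33% of all genes, and with both below there was 1, Kdm1a, against 17.8%.

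Kdm5c differed by 0.03 on the log2 scale between oridonin and vector hearts (SE 0.29), with a 95% interval from -0.68 to 0.74. A change of either sign within these limits cannot be told from no change. The limits are not those of detection, since no gene passed the FDR in this comparison, whatever the size of its difference. Methyltransferases had a median of 0.17, with 5 of 6 higher. The largest was Kmt2d at 0.44 (SE 0.37), then Kmt2b at 0.38 (SE 0.27), Setd1b at 0.18, Kmt2c at 0.16, Kmt2a at 0.09 and Setd1a at -0.08, which was 0.01 under quantile normalization. Demethylases had a median of -0.14, with Kdm5b at -0.31 (SE 0.29), Kdm1a at -0.21 (SE 0.20) and Kdm5a at -0.07. Leaving out 1 library at a time changed the sign in 7 of the 10 genes, all but Kdm5b, Kdm1a and Kmt2b. The median of the 10 was 0.47 without Tet2 vector replicate 1, -0.38 without Tet2 vector replicate 2, 0.28 when oridonin replicate 1 was left out and -0.12 when oridonin replicate 2 was. Without Tet2 vector replicate 1, 8 of the 10 were higher and 3 had an unadjusted p under 0.05 in limma, against 6.93% of all genes, and without Tet2 vector replicate 2 these counts were 1 and 0, against 5.8%.

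The comparison of Tet2 oridonin with WT vector asks whether oridonin-treated hearts of the Tet2+/- group differ from the WT heart given vector. Drug and Tet2 status both differ between these groups, and their parts cannot be told apart. All 10 genes were lower in the oridonin hearts, where 56.2% of all genes tested were lower, except that Kdm1a, at -0.08, was higher (0.03 and 0.05) with the total taken without mitochondrial genes and under quantile normalization. The median log2 fold change was -0.59, against -0.06 over all genes. Both oridonin libraries were below the WT library in 9 of the 10, all but Kdm1a, against 41.8% of all genes. None of the 10 passed the FDR in limma, as for 0% of all genes, and 0 had an unadjusted p under 0.05, against 6.21% of all genes. Kmt2a was at -1.02 (SE 0.63), Kmt2c at -0.75 (SE 0.52), Kmt2d at -0.74 (SE 0.46), Setd1b at -0.73 (SE 0.34) and Kdm5c at -0.65 (SE 0.36). The WT library enters both this comparison and that of Tet2 vector with WT. With oridonin replicate 1 left out the median was -0.38, and with oridonin replicate 2 left out it was -0.77, where 3 of the 10 had an unadjusted p under 0.05 (4.57% of all genes in limma). Without a Tet2 vector library, which enters only the estimate of spread here, this count was 4 for either one (11.1% of all genes without replicate 1 and 10.9% without replicate 2). On the deposited mixed values it was 7 (31.3%).

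**Figure D3:**
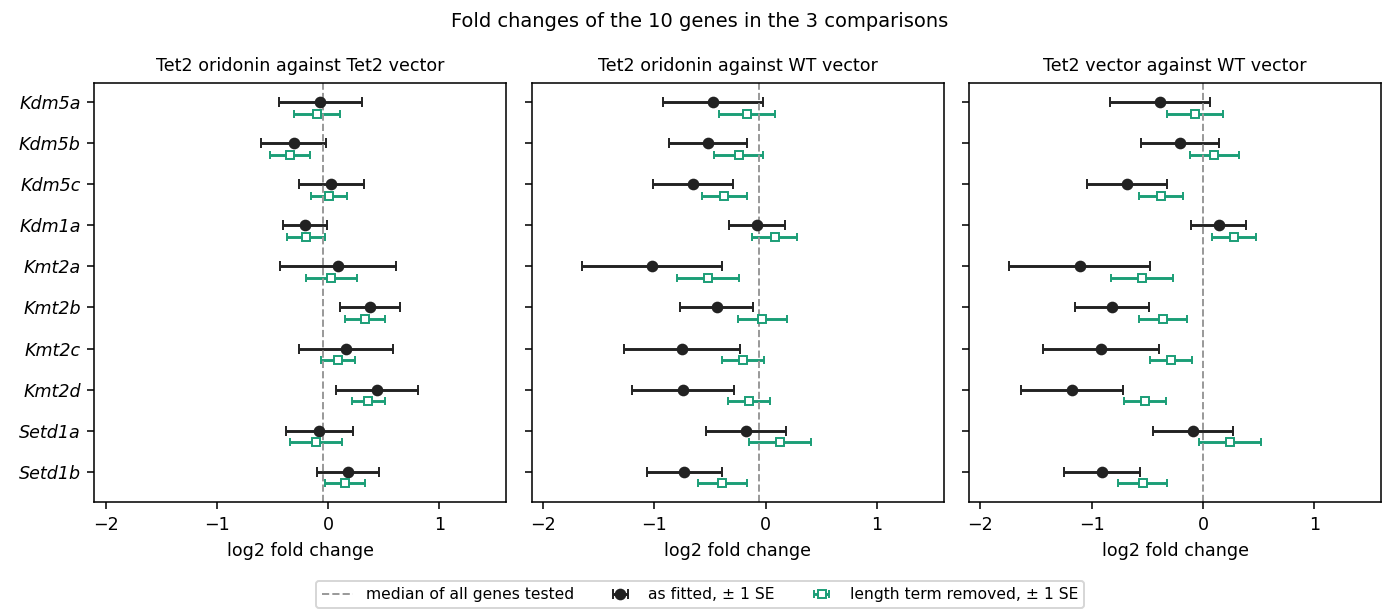
Log2 fold changes of the 10 genes in the 3 comparisons, with bars of 1 SE: black circles as fitted, open squares with the coding-length curve of each library subtracted. Dashed lines are the medians of all genes tested. Against WT the circles lie mostly left of the line, down to -1.18 for Kmt2d, and the squares lie closer to it.

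The 10 genes share long coding sequences, which the choice by name did not use. They run from 2619 bases in Kdm1a to 16764 bases in Kmt2d, and all 10 fell in the longest of 5 equal bins of coding length (2374 genes of 2592 bases or more). In that bin the median log2 difference from the mean of the 5 libraries was -0.17 and 0.10 in the oridonin hearts, 0.22 and -0.32 in the Tet2 vector group and 0.20 in the WT heart. In the shortest bin (2399 genes of up to 780 bases) it was 0.01 and -0.04 in the oridonin hearts, 0.03 and 0.17 in the Tet2 vector group and -0.12 in the WT heart. Long genes as a class were therefore low in Tet2 vector replicate 2 and oridonin replicate 1, the libraries in which the 10 genes were low. The median of the 10 genes was -0.23 and 0.14 in the oridonin hearts, 0.28 and -0.56 in the Tet2 vector group and 0.52 in the WT heart. The curve fitted over all genes had medians at their lengths of -0.21 and 0.12 in the oridonin hearts, 0.26 and -0.41 in the Tet2 vector group and 0.28 in the WT heart. The median of the 10 genes thus lay close to that of the curve in 3 libraries, below it in Tet2 vector replicate 2 and above it in the WT heart. Single genes could lie further from the curve in those 3 libraries. Kmt2a was at -0.70 against -0.33 in oridonin replicate 1, and Kmt2b at -0.05 against 0.31 in Tet2 vector replicate 1.

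**Figure D4:**
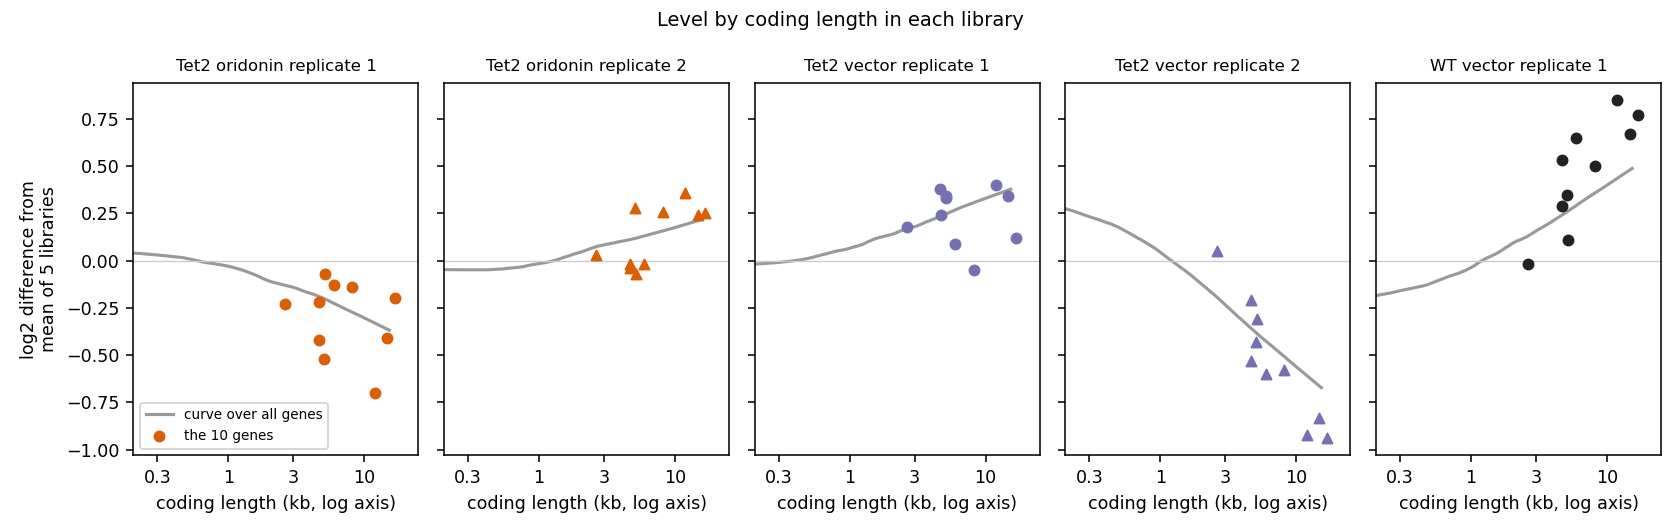
Log2 difference of each library from the mean of the 5, against coding length in kb (log axis). Grey lines are smooth curves over all genes tested with a known coding length, and points are the 10 genes. The curve slopes down with length in oridonin replicate 1 and Tet2 vector replicate 2, and up in the other 3 libraries.

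With the curve of each library subtracted, a setting chosen after the data were seen, the median of the 10 was -0.33 for Tet2 vector against WT, 0.02 for oridonin against vector and -0.18 for oridonin against WT. For Tet2 vector against WT, Kmt2d then had a log2 fold change of -0.52 (SE 0.19, adjusted p = 0.373 in limma), Kmt2a -0.55, Setd1b -0.54, Kdm5c -0.38, Kmt2b -0.36 and Kmt2c -0.29. Kdm5a was at -0.07, and Kdm5b (0.10), Setd1a (0.24) and Kdm1a (0.28) were above 0. The methyltransferases then had a median of -0.44 (5 of 6 lower) and the demethylases of 0.01 (2 of 4 lower). The direction against WT was thus kept in 7 of the 9 genes that had been lower, and the sizes were smaller in each of these 7. For Kmt2d in oridonin against vector, the value was 0.36 (SE 0.15, adjusted p = 1). The cause of the trend with coding length was not tested.

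Levels of cell type markers also differed between libraries. Summed over 7 fibroblast markers, the level was 764 and 802 CPM in the oridonin hearts, 1390 and 1470 CPM in the Tet2 vector group and 912 CPM in the WT heart. Over 6 endothelial markers it was 1020 and 1160 CPM in the oridonin hearts, 1010 and 898 CPM in the Tet2 vector group and 1110 CPM in the WT heart. Macrophage and leukocyte markers, 7 genes, summed to 249 and 248 CPM in the oridonin hearts, 451 and 292 CPM in the Tet2 vector group and 257 CPM in the WT heart. All members of these 3 lists had 3 counts or more in each library. Single genes weighed heavily in the fibroblast sum, where Dcn had 472 to 901 CPM, and in the macrophage and leukocyte sum, where Lyz2 had 171 to 338 CPM. For oridonin against WT, 2 fibroblast, 2 endothelial and 4 macrophage and leukocyte markers were higher, and 5, 4 and 3 were lower. For Tet2 vector against WT, 6, 2 and 5 were higher in the same order of lists, and 1, 4 and 2 were lower. For oridonin against vector, 0, 4 and 2 were higher, and 7, 2 and 5 were lower. Of 4 red cell markers in the table, the sum was 387 and 319 CPM in the oridonin hearts, 247 and 147 CPM in the Tet2 vector group and 366 CPM in the WT heart. Fat cell markers, 6 genes, summed to 0.41 and 7.20 CPM in the oridonin hearts, 21.4 and 0.522 CPM in the Tet2 vector group and 1.12 CPM in the WT heart, and Adipoq and Plin1 had 0 counts in Tet2 vector replicate 2 and in the WT heart. The part of these cell types in the levels of the 10 genes was not tested.

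Genes whose pattern was most like that of Kdm5c were sought among 8182 genes averaging 10 CPM or more, by the root mean square difference of log2 CPM centred on each gene's own mean over the 5 libraries. The nearest 5 were Ankrd50 (0.033), Rbm33 (0.043), Arhgap21 (0.046), Crebbp (0.046) and Ube4a (0.050). Crebbp, which encodes a histone acetyltransferase, had 23.9 and 29.6 CPM in the oridonin hearts, 32.6 and 20.3 CPM in the Tet2 vector group and 42.3 CPM in the WT heart. Of the other 9 genes Setd1b was nearest to Kdm5c, with a difference of 0.097, and it was also the nearest pair of all 45 among the 10. Kmt2c and Kmt2d were next at 0.15, and Kdm1a and Kmt2a were furthest apart at 0.64. With only 5 libraries many genes share such a pattern, and Setd1b ranked 90 among the 8182.

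The rest of the H3K4 pathway was read from a list of 61 genes, of which 60 were in the table and 57 were tested. In limma 0 of the 57 passed the FDR in either direction in any of the 3 comparisons. Their medians were -0.19 for Tet2 vector against WT, -0.04 for oridonin against vector and -0.23 for oridonin against WT, closer to 0 than those of the 10 enzymes against WT. Kdm5d, the Y-linked KDM5 gene, had 10.8 and 16.7 CPM in the oridonin hearts, 16.7 and 9.52 CPM in the Tet2 vector group and 16.9 CPM in the WT heart. Its low libraries were those of Kdm5a, and its log2 fold changes were -0.42 (SE 0.44) for Tet2 vector against WT and 0.09 (SE 0.36) for oridonin against vector. Kdm2b, which binds CpG islands and brings in a Polycomb complex, was at -0.74 (SE 0.36) for Tet2 vector against WT and 0.43 (SE 0.29) for oridonin against vector. Kdm1b, the relative of Kdm1a that acts in mouse oocytes, was at -0.40 (SE 0.28) and 0.04 (SE 0.23).

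The core subunits of the methyltransferase complexes had a median of -0.01 for Tet2 vector against WT, with 2 of 4 lower. With the length curve subtracted this median was 0.03. Their coding lengths, 297 to 1869 bases, were shorter than those of the 10 enzyme genes. Wdr5 had 28.0 and 32.2 CPM in the oridonin hearts, 27.5 and 29.2 CPM in the Tet2 vector group and 33.6 CPM in the WT heart. Ash2l had 33.0 and 30.3 CPM in the oridonin hearts, 33.9 and 32.5 CPM in the Tet2 vector group and 36.5 CPM in the WT heart. All libraries were close together in both genes. Rbbp5 was at 0.11 (SE 0.32) for Tet2 vector against WT. Dpy30, with a coding length of 297 bases, was at 0.53 (SE 0.26) for Tet2 vector against WT and -0.42 (SE 0.21) for oridonin against vector. The difference between core subunits and enzymes was not tested.

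Subunits that belong to some of the complexes and not to the shared core had a median of -0.14 for Tet2 vector against WT. This was over 12 tested genes, with 7 lower. Hcfc1, a cofactor of the SETD1 and KMT2A complexes, was at -0.48 (SE 0.34), and Ncoa6, a partner of KMT2C and KMT2D, at -0.54 (SE 0.39). Psip1, which tethers KMT2A to chromatin, was at 0.39 (SE 0.40). The 17 tested partners of KDM1A and the KDM5 enzymes had a median of -0.01, with 10 lower. Among them Rcor2, a CoREST scaffold, had 4.72 and 8.10 CPM in the oridonin hearts, 7.27 and 5.67 CPM in the Tet2 vector group and 2.07 CPM in the WT heart. Rcor2 was named for its small unadjusted p in this list. Its log2 fold changes against WT were 1.62 (SE 0.45, adjusted p = 0.428 in limma) for Tet2 vector and 1.57 (SE 0.45, adjusted p = 0.689) for oridonin. Hmg20b, another CoREST subunit, was at 0.42 (SE 0.22) and 0.51 (SE 0.22) in these comparisons, and Phf12, a Sin3 partner, at -0.51 (SE 0.26) and -0.33 (SE 0.26).

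Of the other genes listed as H3K4 methyltransferases, Kmt2e among them, 3 of 6 were lower for Tet2 vector against WT. Whether each of them acts on H3K4 was not checked here. Prdm9, which sets sites of meiotic recombination, had 1.5 and 1.99 CPM in the oridonin hearts, 1.35 and 1.89 CPM in the Tet2 vector group and 0.482 CPM in the WT heart. These are low levels, and the log2 fold change of Tet2 vector against WT was 1.66 (SE 0.60, adjusted p = 0.497 in limma). Setd7, which also methylates proteins other than histones, was at -0.62 (SE 0.32). Smyd1, a gene of heart and skeletal muscle that mouse heart development requires, was the most abundant, with 515 and 555 CPM in the oridonin hearts, 514 and 418 CPM in the Tet2 vector group and 504 CPM in the WT heart. Its log2 fold changes were -0.12 (SE 0.21) for Tet2 vector against WT and 0.21 (SE 0.17) for oridonin against vector.

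Readers of H3K4 methylation, proteins whose domains bind the mark, were lower in 14 of 14 tested genes for Tet2 vector against WT (median -0.38) and in 14 of 14 for oridonin against WT (median -0.52), where 49.6% and 56.2% of all genes tested were lower, and 0 of the 14 passed the FDR in limma. These comparisons share the WT library. With the length curve subtracted the medians of the readers were -0.37 and -0.35, with 13 and 14 of 14 lower, and those of the 6 methyltransferases were -0.44 and -0.18. Without Tet2 vector replicate 2 the count for Tet2 vector against WT was 11 of 14, and without oridonin replicate 1 that for oridonin against WT was 11 of 14. Phf2, a PHD finger protein, had 42.1 and 48.5 CPM in the oridonin hearts, 47.6 and 36.0 CPM in the Tet2 vector group and 66.0 CPM in the WT heart. All 4 Tet2 libraries were below WT, as for 27.2% of all genes tested, with a log2 fold change of -0.67 (SE 0.26, adjusted p = 0.511 in limma) for Tet2 vector. Kdm4a, a demethylase of other histone lysines whose Tudor domains bind methylated H3K4, had 33.6 and 37.0 CPM in the oridonin hearts, 29.8 and 21.5 CPM in the Tet2 vector group and 42.7 CPM in the WT heart. Its oridonin libraries lay above both Tet2 vector libraries and below WT, with a log2 fold change of oridonin against vector of 0.48 (SE 0.23, adjusted p = 1 in limma). Phf8 was at -0.66 (SE 0.37) for Tet2 vector against WT, and Phf13 (-0.80, SE 0.33) and Ing5 (-0.66, SE 0.27) had the smallest unadjusted p among readers for oridonin against WT.

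**Figure D5:**
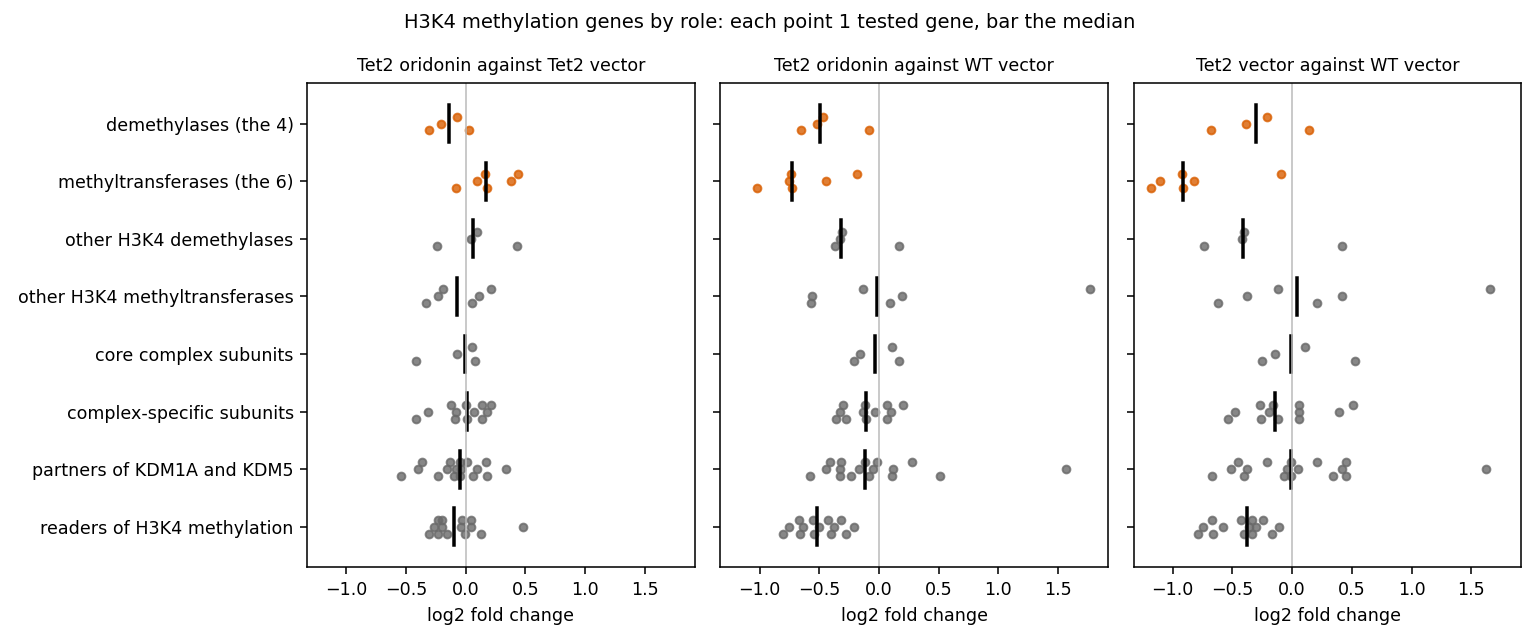
Log2 fold changes of H3K4 methylation genes by role in the 3 comparisons, 1 point per tested gene and a bar at the median. Against WT, the medians of the 6 methyltransferases lie at -0.91 for Tet2 vector and -0.73 for oridonin, those of the readers at -0.38 and -0.52, and those of the core subunits at -0.01 and -0.03. With the length curve subtracted, which is not drawn, the methyltransferases are at -0.44 and -0.18 and the readers at -0.37 and -0.35. The core subunits are then at 0.03 and -0.07.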

How the data were processed

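Heart RNA was poly-A selected and made into NEBNext Ultra libraries, per the labels' protocols, which do not say whether strand was kept. The build was mm10, per the submitters' processing notes. Not given in the sources used here were the aligner, the counter and the annotation. The authors deposited log2 values, which by their pattern are of CPM with 0.5 added to each count, for 17818 symbols in 5 columns, of which 0 lacked a sample. The mix of replicates in the Tet2 columns was found from the values and undone, and its origin was not stated. The WT column is also such a mix (99.9% of 1376 values fitted at weight 0.75), with counts that are in no other column. It could not be undone and was used as deposited, so WT is a mixed column beside unmixed ones.

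Limma 3.58.1 (R 4.3.3; trend, robust) was fitted to unmixed log2 values of 12734 genes (minimum 1 CPM in 2 libraries or more), with group as the sole term over the 5 libraries, which leaves 2 residual degrees of freedom. The WT library is assumed to vary like the others. P-values were adjusted by Benjamini-Hochberg over all genes at an FDR of 0.05. The unmixing and the fit were tried on simulated data for oridonin against vector only, with changes larger than those reported here. The simulated WT library was left unmixed, so the comparisons with WT were not covered. Lengths and places are those of GENCODE M21, GRCm38, with the longest coding transcript per gene; 93.4% of genes tested had a coding length, and loess curves used a span of 0.3. Depth was 14574823 to 15535778 counts, where 3 counts are 0.193 to 0.206 CPM.

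Title numbers gave the replicate numbers. The titles read 1 month or 2 month where the other labels give 2 months for all.

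The 10 genes and all lists were chosen with earlier results of these data known. All 10 were named, with Kdm5d, the 4 core subunits, genes among the 3 with the smallest unadjusted p of each pathway list and comparison, and the 5 genes most like Kdm5c.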

Additional observations from a re-analysis of the deposited data

How the results depend on the processing

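Of 487 recomputed fold changes of the 10 genes, 458 kept their direction and side of the FDR, 25 changed sign and 4 passed the FDR, all 4 on the deposited mixed values. Some settings leave the group means as they were, so the direction was fixed in advance there. They include the deposited mixed values, the other filters, the fit without robust and the fit of the compared groups alone. Leaving out a library of the group not compared does the same. The count of 458 is therefore no measure of stability.

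The number of genes called by limma, 0 in each comparison, was 2312 for Tet2 vector against WT, 76 for oridonin against vector and 996 for oridonin against WT on the deposited mixed values, of which 4, 0 and 0 were among the 10 genes. At an unadjusted p under 0.05 it was 1221, 331 and 791 on unmixed values. Voom also called 0 in each. With only the 2 groups compared in the fit, the calls were 103, 0 and 1. Leaving out 1 replicate at a time gave 2 to 107, 0 to 32 and 0 to 24 calls, where a lone library left in a group is assumed to vary like the rest. None of these further calls was among the 10 genes. The replicate block gave 10, 9 and 6 calls. Libraries with the same number did not tend to deviate alike. Deviations of replicate 1 from the group means correlated at -0.296 across 12734 genes between the Tet2 groups. This value alone cannot show whether libraries were paired, which was not tested further. With the numbers crossed as a block, chosen after the data were seen, the calls were 432, 44 and 184. Taking the total without mitochondrial genes moved the median of all genes against WT to 0.10 for Tet2 vector and 0.05 for oridonin.

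Signs changed as follows, with the range over libraries left out in turn. For Tet2 vector against WT, Kdm5b ran from -0.50 (without Tet2 vector replicate 1) to 0.09 (without replicate 2) and was at 0.03 with crossed numbers and 0.10 with the length term removed. Setd1a ran from -0.42 to 0.23 in the same way and was at 0.07 with the replicate block, 0.07 with crossed numbers and 0.24 with the length term removed. For oridonin against vector, the lowest value came without Tet2 vector replicate 2 and the highest without Tet2 vector replicate 1 for Kdm5c (-0.35 to 0.41), Kmt2a (-0.57 to 0.75), Kmt2c (-0.42 to 0.75), Kmt2d (-0.09 to 0.97), Setd1b (-0.17 to 0.52) and Setd1a (-0.41 to 0.24). Kdm5a ran from -0.47 without oridonin replicate 2 to 0.33 without oridonin replicate 1, and Setd1a was at 0.01 under quantile normalization. Without oridonin replicate 2, Kdm5c (-0.07), Kmt2a (-0.44) and Kmt2c (-0.16) also changed sign. For oridonin against WT, Kdm1a ran from -0.21 without oridonin replicate 2 to 0.06 without oridonin replicate 1, and was at 0.03 without mitochondrial genes, 0.05 under quantile normalization, 0.02 with crossed numbers and 0.08 with the length term removed, where Setd1a was at 0.13. The cause was not tested, except that fewer libraries entered the settings that leave 1 out.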
